A study of Mus musculus with 16 samples.

Results

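The expression of 10 genes of the p53 pathway was followed in muscle stem cells (MuSCs) with and without the telomere protein TRF2. The 10 genes are Trp53, which encodes p53, its negative regulator Mdm2, and 8 genes known as direct p53 targets, Cdkn1a, Ccng1, Phlda3, Eda2r, Gdf15, Zmat3, Trp53inp1 and Plk2. They were listed by name, with no threshold, out of 24411 genes in the count table, and the list was drawn up with earlier results of these data known. All 10 were measured, and all 10 passed the filter on low counts in every comparison.

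The 16 libraries hold RNA of MuSCs sorted from hindlimb muscle of C57BL/6 mice as cells without CD45, CD31, CD11b and Sca1 that carried α7-integrin and VCAM or CD34. They form 4 groups of 4 libraries, which cross genotype with injury. TRF2MuSC-cKO mice carry loxP-flanked TRF2 (gene Terf2) and the tamoxifen-activated Cre recombinase of the Pax7 locus, a gene that marks MuSCs, so that the deletion is restricted to cells with Pax7 activity and their descendants. Control libraries are labelled wild type, and whether the control mice carried Cre or received tamoxifen was not given in the sources used here. Mice received tamoxifen as young adults by the general protocol of the study. Injured muscles were taken 3 days after an injection of 10 µl of notexin (3 DPI), a snake toxin that destroys myofibers, into the tibialis anterior muscle, whereas the other libraries came from uninjured mice.

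The protein p53 is a transcription factor that is held at a low level by Mdm2, which marks it for degradation, and is stabilised when DNA damage kinases act on it. Its activity is therefore set largely on the protein, and is read at the RNA level through the genes it switches on, among them Mdm2 itself, which closes a feedback loop. Loss of TRF2 from chromosome ends is a classical trigger of this pathway in dividing cells. The study asked whether the defects of TRF2-deficient MuSCs run through p53. It reported that deleting p53 as well did not restore regeneration. Under the conditions it assayed, it detected no DNA damage response and no rise in apoptosis or senescence. By qRT-PCR it found no increase of the p53 transcript. The RNA counts give the state of the pathway's genes in the sorted cells.

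p53 binds DNA as a tetramer that contacts a pair of copies of a palindromic consensus decamer. The windows from 250 bases before to 50 bases after the RefSeq start sites (GRCm38.p6) were searched for it on both strands, which for a palindrome are the same search. There were 10 windows for 8 of the 10 genes, and Zmat3 and Trp53inp1 had no entry. The decamer was found in 4 of the 10 windows, those of Mdm2, Ccng1, Trp53 and the upstream start site of Cdkn1a, whereas 8.36% of all 32851 windows hold it. A pair of decamers placed end to end, with at most 1 mismatch in its 20 bases, was present in the windows of Cdkn1a and Ccng1 and in 0.0883% of all windows. The sequences of these 4 genes are shown because they differ in that respect, with the end-to-end pair in capitals for Cdkn1a and Ccng1 and the single decamer in capitals for Mdm2 and Trp53. Each is an 80-base stretch in the direction of transcription, and the Cdkn1a stretch lies at chr17:29090898-29090977 (plus strand), that of Ccng1 at chr11:40755432-40755511 (minus strand), that of Mdm2 at chr10:117710900-117710979 (minus strand) and that of Trp53 at chr11:69580249-69580328 (plus strand).
Cdkn1a: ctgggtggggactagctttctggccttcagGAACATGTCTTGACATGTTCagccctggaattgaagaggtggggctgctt
Ccng1: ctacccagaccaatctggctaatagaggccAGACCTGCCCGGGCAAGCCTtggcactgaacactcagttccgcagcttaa
Mdm2: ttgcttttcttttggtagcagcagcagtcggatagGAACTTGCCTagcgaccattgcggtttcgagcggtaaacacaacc
Trp53: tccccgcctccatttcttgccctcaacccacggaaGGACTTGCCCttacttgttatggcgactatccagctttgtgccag
The pair of Cdkn1a begins 51 bases and that of Ccng1 195 bases upstream of the start site. Cdkn1a has another decamer at 73 bases upstream, and the single decamers of Mdm2 and Trp53 begin 186 and 75 bases upstream. The windows of Phlda3, Eda2r, Gdf15 and Plk2 and the downstream start site of Cdkn1a held no decamer, which says only that these letters are not in those windows.

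**Figure D1:**
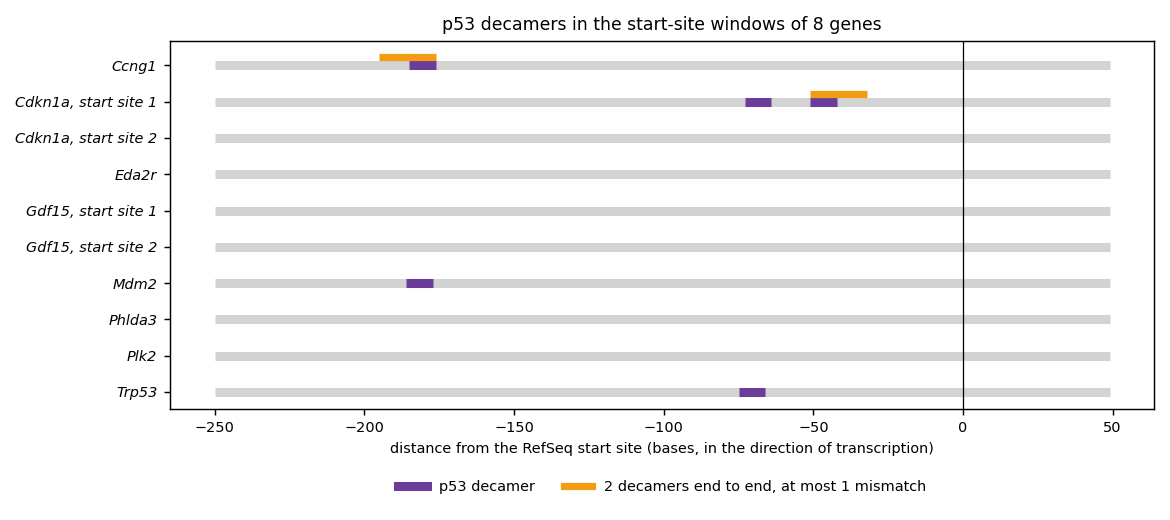
Positions of the p53 decamer (purple) and of end-to-end pairs with at most 1 mismatch (orange) in 10 start-site windows of 8 genes, drawn in grey against the distance from the RefSeq start site in bases, read in the direction of transcription. Ccng1 and the upstream start site of Cdkn1a have a pair, Mdm2 and Trp53 a single decamer, and the other 6 windows none.

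Depth was low and differed between the groups. Uninjured controls had 909474 to 1351130 estimated counts per library and uninjured TRF2MuSC-cKO MuSCs 665776 to 976984, with 3 of these 4 below every control, whereas at 3 DPI controls had 620506 to 1304088 and the libraries labelled TRF2MuSC-cKO 687418 to 862825. The number of genes detected was 19996 to 21881 in 15 libraries and 15389 in replicate 3 of the libraries labelled TRF2MuSC-cKO at 3 DPI. That replicate also stood apart from its group in a chi-square comparison of counts (17.4 to 18.6 per degree of freedom against 2.97 to 7.14 for all other replicate pairs). The numbers called over all genes, and Trp53, Ccng1 and Gdf15 between genotypes at 3 DPI, are given with and without it. Other values at 3 DPI include it unless stated otherwise, among them those of Bax (1.24 to 33.8 CPM in these 4 libraries). Levels are in CPM, counts scaled to a common library size with TMM over all 16 libraries. Terf2 was at 71.5, 94.5, 66.3 and 73.1 CPM in uninjured controls and at 49.7, 46.8, 58.7 and 27.2 CPM in uninjured TRF2MuSC-cKO MuSCs, without overlap, as in 9.18% of all genes in that direction (log2 fold change -0.62, SE 0.27, adjusted p = 0.199). In the second deposited table, rescaled by transcript length and set to the library total, Terf2 did overlap between these groups. It was at 59.6 to 85.2 in controls and at 29.8 to 67.9 in TRF2MuSC-cKO MuSCs. At 3 DPI it was at 35.5, 48.6, 48.2 and 42.8 CPM in controls and 52.6, 21.9, 66.9 and 89.7 CPM in the libraries labelled TRF2MuSC-cKO (log2 fold change 0.44, SE 0.42, adjusted p = 0.755), so that the transcript does not mark the deletion there, and these samples are called by their label throughout. The part of Terf2 that is deleted was not given in the sources used here. The sum of 9 MuSC markers was 3457 to 5362 CPM in uninjured controls, 1879 to 2863 CPM in uninjured TRF2MuSC-cKO MuSCs, 798 to 1143 CPM in controls at 3 DPI and 443 to 619 CPM in the libraries labelled TRF2MuSC-cKO at 3 DPI.

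In uninjured muscle, 7 of the 10 genes were higher in TRF2MuSC-cKO than in control MuSCs, by 2.76-fold (Mdm2) to 5.16-fold (Cdkn1a), and in each of the 7 all 4 TRF2MuSC-cKO libraries lay above all 4 controls. Trp53 itself was not among them. A gene is called where the adjusted p of edgeR's quasi-likelihood test, taken over all genes tested, is under 0.02 and the fold change is over 1.5. Of 14048 genes tested, 0.584% were called higher and 3.43% did not overlap in that direction. The split over all genes, 82 higher and 370 lower, depended on the setting. It was 176 higher and 212 lower with library size alone, 78 and 386 with median-of-ratios scaling, and 157 and 142 by robust limma. The study reported more genes in each direction for this comparison than any of these settings called, and more lower than higher. The cause of that difference was not tested. Because the 10 genes were listed with earlier results known, these p-values give their place in the fit and are no independent support. In bulk RNA, fewer cells of a type and less RNA per cell cannot be told apart.

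**Figure D2:**
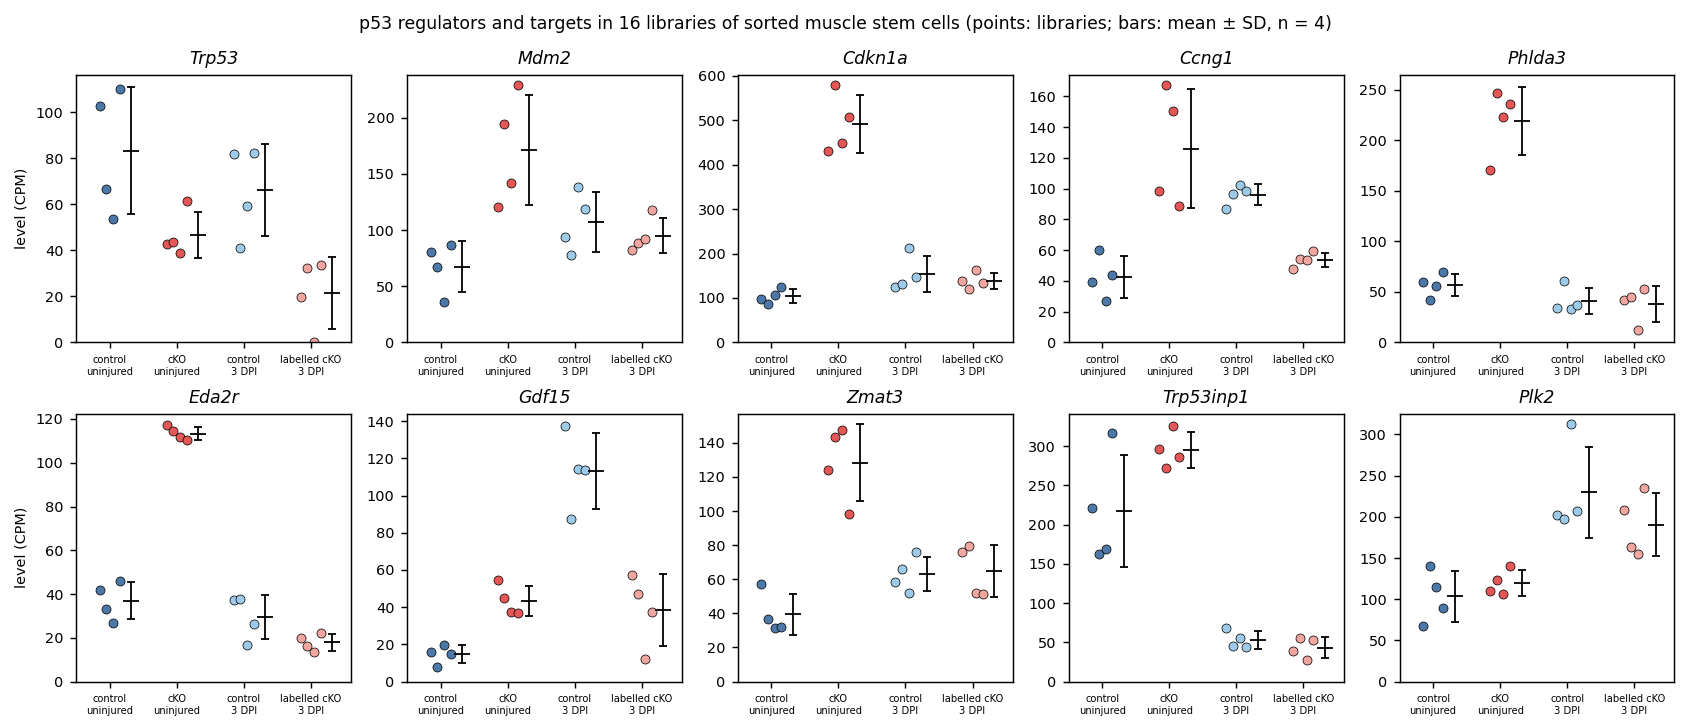
Level in CPM (linear axis from 0) of each of the 10 genes in the 16 libraries, with points for libraries and bars for the mean ± SD of 4 libraries. In uninjured MuSCs the TRF2MuSC-cKO points of Mdm2, Cdkn1a, Ccng1, Phlda3, Eda2r, Gdf15 and Zmat3 lie above all control points, and at 3 DPI the points labelled TRF2MuSC-cKO of Trp53, Ccng1 and Gdf15 lie below all control points.

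Trp53 (chr11:69580359-69591873, plus strand) was at 103, 66.6, 53.5 and 110.2 CPM in uninjured controls and at 42.6, 43.6, 38.6 and 61.3 CPM in TRF2MuSC-cKO MuSCs. The TRF2MuSC-cKO libraries were the lower ones, but the highest of them exceeded the lowest control. The log2 fold change was -0.71 (95% interval -1.26 to -0.16, adjusted p = 0.123), and the gene was not called. Mdm2 (chr10:117688875-117710758, minus strand), the ubiquitin ligase that removes p53, was at 80.4, 66.6, 36.0 and 86.8 CPM in controls and at 121, 194, 142 and 229 CPM in TRF2MuSC-cKO MuSCs. The groups did not overlap, and the rise was 1.46 on the log2 scale (SE 0.24, adjusted p = 7.43e-05). The transcript of the regulator was thus higher while that of p53 was not.

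Among the targets tied to the cell cycle, Cdkn1a (chr17:29090976-29100727, plus strand), which encodes the cyclin-dependent kinase inhibitor p21, had the smallest p of all 14048 genes. It was at 96.5, 87.3, 107 and 125 CPM in controls and at 432, 579, 449 and 507 CPM in TRF2MuSC-cKO MuSCs. The lowest TRF2MuSC-cKO library was more than 3 times the highest control, and the log2 fold change was 2.37 (SE 0.20, 95% interval 1.96 to 2.77, adjusted p = 3.5e-11). Ccng1 (chr11:40748552-40755311, minus strand), a cyclin that recruits a phosphatase to Mdm2, was at 39.3, 60.3, 26.7 and 43.9 CPM in controls and at 98.2, 167, 150.3 and 88.5 CPM in TRF2MuSC-cKO MuSCs. The groups did not overlap, and the log2 fold change was 1.68 (SE 0.26, adjusted p = 3.46e-05). Plk2 (chr13:110395046-110400844, plus strand), a polo-like kinase that acts on centrioles and is also induced by serum, was at 67.9, 140.5, 115 and 89.7 CPM in controls and at 110.1, 124, 106 and 140.3 CPM in TRF2MuSC-cKO MuSCs. These ranges overlapped almost wholly (log2 fold change 0.34, 95% interval -0.12 to 0.79, adjusted p = 0.429).

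The targets that act on survival and death gave 2 called genes and 1 that was not. Phlda3 (chr1:135766119-135769136, plus strand), which restrains Akt by competing for membrane lipids, was at 59.9, 42.3, 55.8 and 69.2 CPM in controls and at 170.4, 247, 223 and 236 CPM in TRF2MuSC-cKO MuSCs. All TRF2MuSC-cKO libraries were higher, and the log2 fold change was 2.07 (SE 0.22, adjusted p = 9.68e-09). Eda2r (chrX:97333840-97377216, minus strand), a receptor of the TNF receptor family that binds ectodysplasin A2, was at 42.0, 33.3, 26.7 and 45.8 CPM in controls and at 117, 114, 112 and 110.3 CPM in TRF2MuSC-cKO MuSCs. The TRF2MuSC-cKO libraries were close to each other (113 ± 3.03 CPM, SD, n = 4) and above every control (log2 fold change 1.74, SE 0.25, adjusted p = 8.53e-06). Trp53inp1 (chr4:11156431-11174379, plus strand), a nuclear protein linked to p53 phosphorylation and autophagy, was at 221, 163, 169 and 317 CPM in controls and at 296, 272, 326 and 286 CPM in TRF2MuSC-cKO MuSCs. Replicate 4 of the controls lay within the TRF2MuSC-cKO range, and the gene was not called (log2 fold change 0.57, SE 0.20, adjusted p = 0.0904), though it was with library size as the scaling and with the filter of 10 counts in every library.

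The secreted factor Gdf15 and the RNA-binding protein Zmat3 were the remaining targets. Gdf15 (chr8:70629393-70632456, minus strand), a stress-induced cytokine of the TGF-β superfamily, was at 16.1, 8.10, 19.8 and 14.6 CPM in controls and at 54.4, 44.7, 37.2 and 36.8 CPM in TRF2MuSC-cKO MuSCs. The groups did not overlap, and the log2 fold change was 1.69 (SE 0.38, adjusted p = 0.00336). Gdf15 rests on the fewest counts of the 10 genes, 14.8 on average in a control library, and was not called without TRF2MuSC-cKO replicate 1 or without control replicate 2. Zmat3 (chr3:32334792-32366014, minus strand), a zinc finger protein that regulates splicing and mRNA stability, was at 57.2, 36.9, 31.4 and 32.2 CPM in controls and at 124, 143, 147 and 98.1 CPM in TRF2MuSC-cKO MuSCs. Every TRF2MuSC-cKO library was above every control (log2 fold change 1.82, SE 0.25, adjusted p = 4.41e-06).

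Cdkn1a, Phlda3 and Eda2r were called under all 18 alternatives tried in uninjured MuSCs, whereas the second deposited table, in which abundances are rescaled by transcript length, left only these 3 called. Robust limma, the study's own method, called 5 of the 10, without Mdm2 and Ccng1, and the fit of all 16 libraries called 6, without Gdf15. The sum of 9 MuSC markers did not overlap between the uninjured groups, with 6 of 9 called lower in TRF2MuSC-cKO MuSCs. The sum of 9 myeloid markers was 72.2 to 117 CPM in controls and 122 to 176 CPM in TRF2MuSC-cKO MuSCs, with none of the 7 tested called. The pericyte and smooth muscle markers Rgs5 and Cspg4 were called higher, 2 of 5, and at an unadjusted p under 0.05 3 were higher and 1 lower. The sum of these 5 overlapped, at 782 to 1151 CPM in controls and 690 to 1724 CPM in TRF2MuSC-cKO MuSCs. Of the fibroadipogenic list 4 of 5 markers were tested, with 1 called higher (Dcn) and 1 lower (Dpt), none of the endothelial, Schwann and myofiber markers was called, and no marker was at 0 in all libraries of a group. The part of these shifts in the 7 genes was not tested. The submitters' descriptions carry a code, of unstated meaning, that no control and TRF2MuSC-cKO library from uninjured mice share, so that it cannot be told apart from genotype there. Across injury, each genotype has 1 code in common, that of 1 uninjured and 2 injured libraries, and the others differ, so that the code is also partly confounded with injury and with the difference of effects.

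The levels of the genes relative to each other were compared per transcript length, as values of the second deposited table divided by the library total and scaled like CPM. In uninjured controls the order was Cdkn1a (125 ± 17.2, SD, n = 4), Trp53 (106 ± 28.1), Phlda3 (90.2 ± 14.7), Trp53inp1 (88.4 ± 23.1) and Plk2 (84.4 ± 28.8), then Mdm2 (49.4 ± 14.1), Gdf15 (32.6 ± 12.1), Ccng1 (27.3 ± 8.67), Eda2r (25.6 ± 3.74) and Zmat3 (11.2 ± 3.30). By mean ± SD each gene overlapped with the next in this order, apart from Eda2r and Zmat3, whereas Cdkn1a and Phlda3, which are not neighbours, did not overlap. In TRF2MuSC-cKO MuSCs Cdkn1a (737 ± 70.9) and Phlda3 (434 ± 46.4) stood above all others, and Mdm2 (158 ± 38.5), Trp53inp1 (153 ± 16.8), Plk2 (121 ± 12.0), Gdf15 (120.0 ± 29.3), Ccng1 (102 ± 29.0) and Eda2r (98.7 ± 11.5) followed. Trp53 (74.7 ± 15.6) had moved from the second to the ninth place, and Zmat3 (46.0 ± 8.42) remained the lowest. Neighbours from Mdm2 downwards overlapped by mean ± SD, apart from Trp53inp1 and Plk2, and Trp53 and Zmat3.

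A wider list of 61 p53 pathway genes, also drawn up with earlier results known, gave the surroundings of these 10. Of its 39 other p53 targets, 34 were tested in uninjured MuSCs, 6 were called higher in TRF2MuSC-cKO and 0 lower, beside 0.584% and 2.63% of all genes (at an unadjusted p under 0.05, which 19.5% of all genes had in either direction, 13 were higher and 2 lower, and no setting called any lower). The median log2 fold change of the 34 was 0.55, against 0.06 over all genes. By role, 2 of 10 tested apoptosis genes were called, Aen (a nuclease, log2 fold change 1.72, adjusted p = 4.43e-06) and Bbc3 (the BH3-only protein PUMA, 1.30, adjusted p = 0.00309), whereas Bax had 0.48 (adjusted p = 0.529). Of the cell cycle genes 1 of 8 was called, the stress sensor Sesn2 (1.48, adjusted p = 0.0121), of the metabolic genes 2 of 4, the adenylate kinase Ak1 (1.82, adjusted p = 8.29e-04) and the xylulose reductase Dcxr (2.47, adjusted p = 0.00811), of other targets 1 of 7, Zfp365 (1.56, adjusted p = 0.00915), and of DNA repair genes 0 of 5 (edgeR, 1 at an unadjusted p under 0.05, Polk, at 1.18 with adjusted p = 0.0367). Dcxr rests on 1.80 to 8.93 CPM in controls, close to the 3 counts taken as the floor of a library. Pidd1 (1.55, adjusted p = 0.0322), Polk and Gtse1 (1.35, adjusted p = 0.0900) had the next smallest p.

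Of 20 other regulators of p53, 18 were tested, 0 were called higher and 2 lower. These were Rpl5 (-0.84, adjusted p = 0.00892) and Rpl11 (-0.86, adjusted p = 0.00549), ribosomal proteins that bind Mdm2 when they are free of ribosomes. Both share sequence with pseudogenes, so their counts may be uncertain, which was not tested. Mdm4, the partner of Mdm2, was at 0.22 (95% interval -0.17 to 0.60), and the p53 paralogs Trp63 (0.64, adjusted p = 0.360) and Trp73 (0.39, adjusted p = 0.599) were not called. Of these 8 called genes, 1 (Aen) was called with all 16 libraries in one fit and 0 with the rescaled table.

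**Figure D3:**
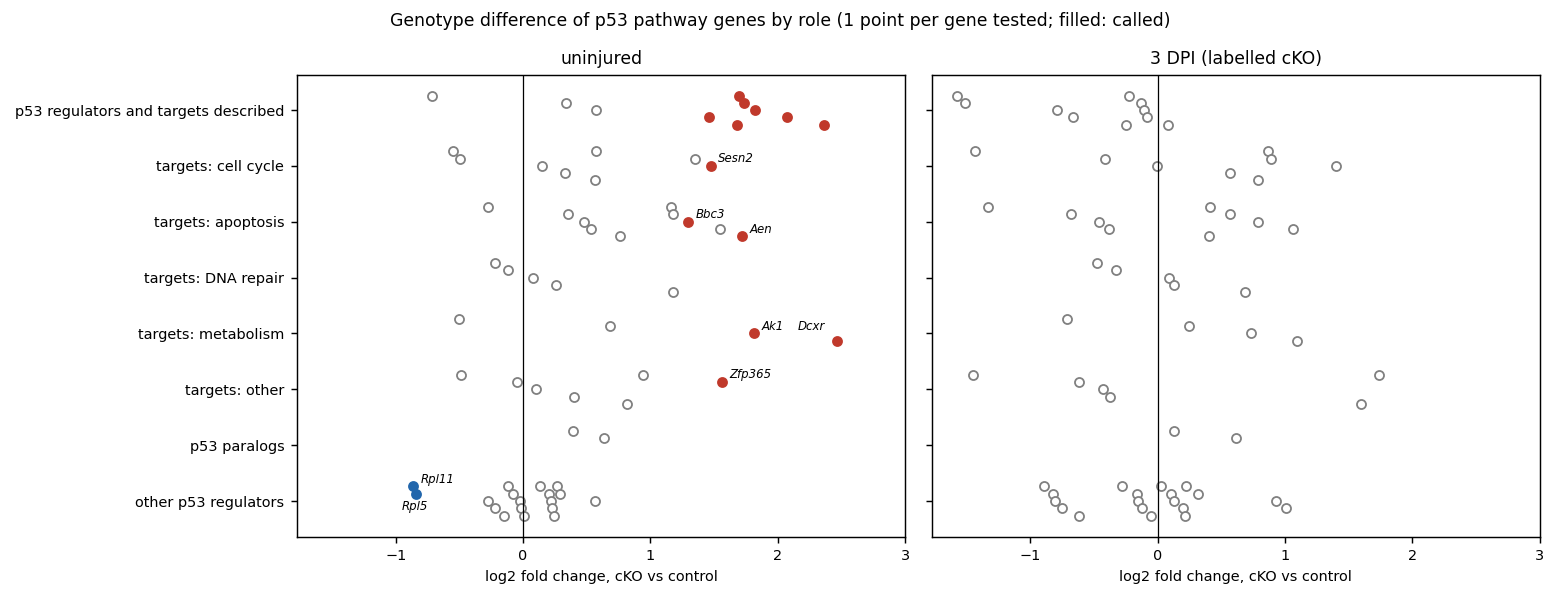
Log2 fold change between TRF2MuSC-cKO and control MuSCs of each tested p53 pathway gene, grouped by role on the vertical axis, in uninjured muscle (left) and at 3 DPI (right). Filled points are called higher (red) or lower (blue), and open points are not called. In uninjured MuSCs 7 of the 10 genes described and 6 further targets are red, and at 3 DPI no point is filled.

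At 3 DPI none of the 10 genes was called between the genotypes by the same test. Of 14559 genes tested, 0% (0 genes) were called and 9.36% had an unadjusted p under 0.05. Robust limma called 28 genes and DESeq2 22, and edgeR called 16 without replicate 3 of the labelled libraries, 3 higher and 13 lower. Among the 10 genes, 3 had such a p, all lower, and robust limma and DESeq2 called 0 of the 10. Cdkn1a was at 124, 132, 211 and 148 CPM in controls and at 138, 119.9, 162 and 133 CPM in the libraries labelled TRF2MuSC-cKO. These ranges overlapped, and the log2 fold change of -0.11 had a 95% interval of -0.64 to 0.43, which leaves out the 2.37 of uninjured MuSCs. Mdm2 was at 94.2, 77.8, 139 and 118 CPM in controls and at 81.8, 88.8, 91.7 and 118 CPM in the labelled libraries (-0.13, 95% interval -0.71 to 0.45). The intervals were -1.09 to 0.92 for Phlda3 and -0.58 to 0.74 for Zmat3, around estimates of -0.08 and 0.08, -1.73 to 0.39 for Eda2r (-0.67), -1.04 to 0.54 for Trp53inp1 (-0.25) and -0.74 to 0.29 for Plk2 (-0.23). The direction of Mdm2, Cdkn1a, Phlda3 and Zmat3 changed with the setting, as their ranges over the alternatives crossed 0.

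Trp53, Ccng1 and Gdf15 had no overlap between the genotypes at 3 DPI, and lay lower in the libraries labelled TRF2MuSC-cKO, as 4.87% of all genes did, whereas 2.97% lay higher without overlap and none of the 10 did. Trp53 was at 81.8, 40.8, 59.0 and 82.3 CPM in controls and at 19.9, 32.3, 0 and 33.8 CPM in the labelled libraries. The 0 belongs to replicate 3, in which 3 counts, the upper limit that a count of 0 allows, would be 3.72 CPM (counting error only). The log2 fold change was -1.57 (adjusted p = 0.523), and without that replicate -1.18 (adjusted p = 0.159). Ccng1 was at 86.5, 96.3, 102 and 98.7 CPM in controls and at 47.9, 54.2, 53.3 and 59.4 CPM in the labelled libraries, both narrow ranges. Its log2 fold change was -0.79 (SE 0.26, adjusted p = 0.455), and -0.81 without replicate 3 (adjusted p = 0.188). Gdf15 was at 137, 87.5, 114 and 114 CPM in controls and at 57.2, 47.3, 12.4 and 37.3 CPM in the labelled libraries. Its log2 fold change was -1.51 (SE 0.40, adjusted p = 0.452), and -1.23 without replicate 3 (adjusted p = 0.0605). None of the 3 was called under any alternative, and in edgeR's fit the biological coefficient of variation was 0.495 at 3 DPI against 0.297 in uninjured MuSCs. Estimates at 3 DPI lay below 0 for 9 of 9 MuSC markers (3 without overlap, 2 at an unadjusted p under 0.05) and 8 of 9 myeloid markers (1 and 1). They also did for 4 of 5 fibroadipogenic and 4 of 6 endothelial markers and 7 of 8 cycling genes (median -0.34, 1 and 1). Above 0 were 4 of 4 Schwann markers (median 0.49, 0 and 1) and 3 of 5 pericyte and smooth muscle markers (median 0.26). Those of myofibers split 2 and 2, with 1 higher without overlap. None was called. The MuSC marker sums given above did not overlap at 3 DPI, and the myeloid sums were 4539 to 5775 CPM in controls and 1996 to 5383 CPM in the labelled libraries. Their part in the lower levels of the 3 genes was not tested.

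Of the wider list, 53 genes were tested at 3 DPI and 0 were called (edgeR), with 3 higher and 3 lower at an unadjusted p under 0.05, and robust limma and DESeq2 also called 0. The 3 smallest p belonged to Rpl11 (-0.89, adjusted p = 0.452), Trp53cor1, the long noncoding RNA lincRNA-p21 (1.74, adjusted p = 0.452), and Rpl5 (-0.62, adjusted p = 0.460). Bax was at -1.34 (adjusted p = 0.532), Bbc3 at 0.57 (adjusted p = 0.699), Mdm4 at 0.22 (adjusted p = 0.853), Trp73 at 0.61 (adjusted p = 0.752) and Trp63 at 0.13 (adjusted p = 0.951). At 3 DPI 2 libraries of each genotype share a description code, and within these 2 against 2 libraries no gene of either list was called.

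With injury, 4 of the 10 genes were called in control MuSCs. Gdf15, Ccng1 and Plk2 rose and Trp53inp1 fell, beside 10.8% of 15356 genes called higher and 9.46% called lower (1652 and 1452 genes, or 1989 and 1066 with library size alone). Gdf15 went from 8.10 to 19.8 CPM in uninjured controls to 87.5 to 137 CPM at 3 DPI (log2 fold change 2.99, SE 0.29, adjusted p = 1.44e-11), so that the injured control level was above that of uninjured TRF2MuSC-cKO MuSCs (113 ± 20.4 against 43.3 ± 8.28 CPM, SD, n = 4). Plk2 went from 67.9 to 140.5 CPM to 197 to 313 CPM (1.19, SE 0.22, adjusted p = 2.54e-05), and Ccng1 from 26.7 to 60.3 CPM to 86.5 to 102 CPM (1.21, SE 0.25, adjusted p = 1.44e-04). In none of these 3 did the groups overlap, as in 12% of all genes in that direction. Trp53inp1 fell from 163 to 317 CPM to 44.4 to 67.9 CPM (-2.00, SE 0.23, adjusted p = 1.29e-09), again without overlap, as in 12.3% of all genes.

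The other 6 genes were not called between uninjured and injured controls. Mdm2 (log2 fold change 0.71, adjusted p = 0.0235), Cdkn1a (0.61, adjusted p = 0.0256) and Zmat3 (0.72, adjusted p = 0.0471) had 95% intervals above 0, and each was called under 4 of 18 alternatives. Trp53 (-0.30, adjusted p = 0.460), Phlda3 (-0.41, adjusted p = 0.324) and Eda2r (-0.30, adjusted p = 0.591) had estimates below 0. In the wider list 3 of 56 tested genes were called higher and 8 lower, beside 10.8% and 9.46% of all genes. The 3 were the peptide transporter Tap1 (2.20), Bax (1.02) and the apoptosome protein Apaf1 (1.02). Among the 8 were the antiproliferative gene Btg2 (-2.85), the epoxide hydrolase Ephx1 (-2.28) and Mdm4 (-1.56). The remaining 5 were Gadd45a (-0.93), Crebbp (-0.92), Huwe1 (-0.91), Sesn1 (-0.86) and Rpl5 (-0.82). Ercc5, Rpl11 and Pvt1 had the next smallest p (-0.79, -0.56 and -1.16), and Bbc3 (-0.09), Trp63 (0.15) and Trp73 (-0.45) were not called.

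The composition of the libraries moved with injury as well. The sum of 9 myeloid markers was 4539 to 5775 CPM in injured controls against 72.2 to 117 CPM in uninjured ones, with 9 of 9 called higher, although CD45 and CD11b were used to remove such cells, and 9 of 9 MuSC markers were called lower. Of 5 fibroadipogenic markers 4 were called higher, Pdgfra (log2 fold change 1.70), Ly6a (1.92), Dcn (1.59) and Lum (1.64), and 1 lower, Dpt (-2.17), while their sum was 294.7 to 437 CPM against 286 to 429 CPM. Among the markers of other cell types, Ckm of myofibers was called higher (1.49), Acta2 of smooth muscle lower (-0.80), and no endothelial or Schwann marker was called. The sum of 8 cycling genes was 693 to 1031 CPM against 154 to 191 CPM, with 7 of 8 called higher. The part of these shifts in the injury response of the 10 genes was not tested.

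From uninjured to injured TRF2MuSC-cKO libraries the direction was down for 9 of the 10 genes, and 4 were called lower and 0 higher (robust limma and DESeq2 also called 0 higher, and edgeR had 1, Plk2, at an unadjusted p under 0.05, as 16.4% of all genes in either direction), beside 1.61% of 14578 genes called lower and 2.43% called higher. These shares stand for 589 genes, and without replicate 3 of the labelled libraries at 3 DPI 1316 were called, 803 higher and 513 lower, and without any other single library 358 to 439. Cdkn1a went from 432 to 579 CPM to 119.9 to 162 CPM (log2 fold change -1.89, SE 0.23, adjusted p = 1.36e-04), Eda2r from 110.3 to 117 CPM to 13.6 to 22.1 CPM (-2.71, SE 0.33, adjusted p = 1.64e-04) and Phlda3 from 170.4 to 247 CPM to 12.4 to 52.4 CPM (-2.59, SE 0.37, adjusted p = 4.89e-04). These 3 did not overlap, as 6.7% of all genes in that direction, and were called under all 18 alternatives. Trp53inp1 fell from 272 to 326 CPM to 27.3 to 55.4 CPM (-2.83, SE 0.28, adjusted p = 2.86e-05), as it did in controls. Ccng1 (-1.29, adjusted p = 0.0208), Zmat3 (-1.05, adjusted p = 0.0497) and Mdm2 (-0.91, adjusted p = 0.0759) had no overlap either but were not called, and without replicate 3 of the labelled libraries at 3 DPI Ccng1 was (-1.27, adjusted p = 0.00384). Trp53 was at -1.18 (adjusted p = 0.483), Gdf15 at -0.24 (adjusted p = 0.884) and Plk2 at 0.60 (adjusted p = 0.218), and Gdf15 was at 0.08 without replicate 3. Trp53, with 0 counts in that replicate, was at -1.44 to -0.74 with 1 library left out. Trp53 lay lower and Plk2 higher without overlap, the latter as 6.9% of all genes did.

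In the wider list 52 genes were tested between injured and uninjured TRF2MuSC-cKO libraries. Of these 0 were called higher, beside 2.43% of all genes (edgeR, also 0 at an unadjusted p under 0.05 and 0 by robust limma and DESeq2). Called lower were 3, beside 1.61% of all genes. These were Btg2 (-3.02, adjusted p = 1.75e-04), Mdm4 (-1.57, adjusted p = 0.00438) and the histone acetyltransferase Crebbp (-0.99). Ercc5 (-1.53, adjusted p = 0.0278), Aen (-1.54, adjusted p = 0.0296) and Ephx1 (-2.53, adjusted p = 0.0305) came next and were called, with the first 3, when replicate 3 was left out. Bbc3 was at -0.84 (adjusted p = 0.288), Bax at -0.84 (adjusted p = 0.659), Trp63 at -0.39 (adjusted p = 0.802) and Trp73 at -0.22 (adjusted p = 0.915). In these libraries 8 of 9 myeloid markers were called higher (sums of 1996 to 5383 CPM against 122 to 176 CPM) and 7 of 9 MuSC markers lower, and no marker of the other cell types listed was called. The sum of 8 cycling genes was 512 to 801.5 CPM against 157 to 179 CPM, with 2 of 8 called higher. The part of these shifts in the fall of the 4 genes was not tested.

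**Figure D4:**
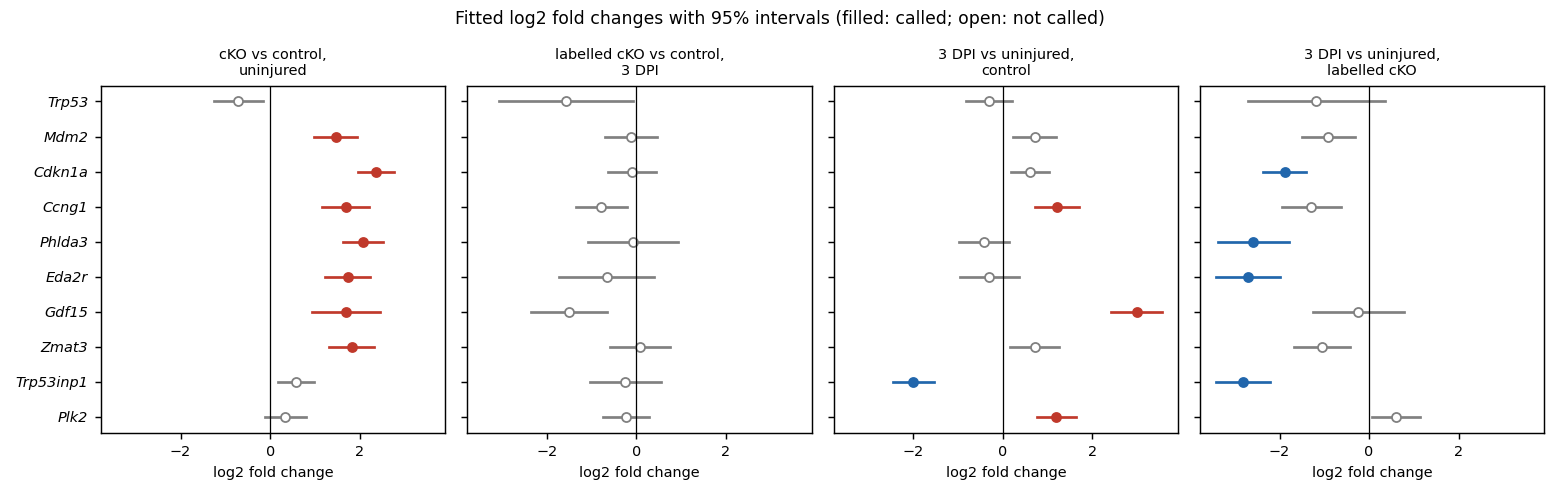
Log2 fold changes of the 10 genes with 95% intervals in the 4 comparisons, 1 panel each, from edgeR's fit. Filled points are called higher (red) or lower (blue), and open grey points are not called. The 7 red points between genotypes in uninjured MuSCs face none at 3 DPI, and injury gives 3 red points and 1 blue point in controls but 4 blue points in the libraries labelled TRF2MuSC-cKO.

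The difference between the genotype effects at 3 DPI and in uninjured muscle was tested on all 16 libraries, in which 3 of 16822 genes (0.0178%) were called, all of them lower, and 5.74% had an unadjusted p under 0.05. Without replicate 3 of the libraries labelled TRF2MuSC-cKO at 3 DPI 13 genes were called, 4 higher and 9 lower, and without any other single library 1 to 2. Of these 3 genes, 2 were among the 10. Cdkn1a had the smallest p of all genes, with a difference of -2.40 on the log2 scale (SE 0.32, 95% interval -3.05 to -1.75, adjusted p = 9.44e-04), and was called under all 25 alternatives. Ccng1 had a difference of -2.40 (SE 0.40, 95% interval -3.23 to -1.56, adjusted p = 0.0181). It was called in only 10 of 25 alternatives, and of the 16 fits that each leave out 1 library it was called in 3. Gdf15 had the largest estimate (-3.11, SE 0.54, adjusted p = 0.0226) and just missed the threshold, followed by Eda2r (-2.31, adjusted p = 0.120), Phlda3 (-2.06, adjusted p = 0.197), Zmat3 (-1.66, adjusted p = 0.249) and Mdm2 (-1.52, adjusted p = 0.370).

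Trp53 (-0.76, adjusted p = 0.958), Trp53inp1 (-0.72, adjusted p = 0.884) and Plk2 (-0.49, adjusted p = 0.940) also had differences below 0, with intervals that included it. That of Trp53 was -1.13 to -0.47 with 1 library left out. Without replicate 3 of the libraries labelled TRF2MuSC-cKO at 3 DPI, 5 of the 10 genes were called, Cdkn1a (-2.60, adjusted p = 2.98e-06), Gdf15 (-2.94, adjusted p = 2.56e-04), Ccng1 (-2.51, adjusted p = 2.77e-04), Phlda3 (-1.90, adjusted p = 0.00962) and Eda2r (-2.31, adjusted p = 0.00962). In the wider list 60 genes were tested for this difference and 0 were called (edgeR, 7 lower at an unadjusted p under 0.05). Aen (-1.25, adjusted p = 0.730), Ak1 (-1.50, adjusted p = 0.757) and Zfp365 (-2.08, adjusted p = 0.766) had the smallest p, Bax was at -1.73 (adjusted p = 0.825), Bbc3 at -0.65 (adjusted p = 0.946), Mdm4 at 0.09, Trp63 at -0.43 and Trp73 at 0.33. In the same contrast 9 of 9 myeloid markers lay below 0 (median -1.13, 5 at an unadjusted p under 0.05), 4 of 5 fibroadipogenic markers did (median -1.12) and 4 of 9 MuSC markers did (median 0.10), with none called. Their part in the difference of the 10 genes was not tested.

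Across the 16 libraries, the genes most like Cdkn1a among the 12243 whose mean log2 CPM reached 4 were Gas6, a ligand of the TAM receptor kinases (Pearson r 0.90 of log2 CPM), Gria3, an AMPA receptor subunit (0.84), and Zmat3 (0.82). Mdm2, Phlda3, Eda2r and Ccng1 came at ranks 5, 7, 9 and 12. Those most like Mdm2 were Cdkn1a (0.81), N4bp3 (0.78) and Ccng1 (0.77). The points are libraries of 4 groups and share the group differences given above, and within the groups the correlation of Cdkn1a with Mdm2 was 0.44 and that with Zmat3 -0.41. With Ccng1 it was 0.04, with Phlda3 -0.21 and with Eda2r -0.53 within the groups. As Gas6 and Gria3 were picked on these libraries, their genotype effects are a description with no test. The log2 fold change of Gas6 was 2.15 (SE 0.21) in uninjured MuSCs and 0.12 (SE 0.20) at 3 DPI, with a difference of -1.95 (SE 0.32), and it was the third of the 3 genes called for the difference. For Gria3 the values were 2.43 (SE 0.29), -0.36 (SE 0.55) and -2.73 (SE 0.61), and it was not called for the difference.

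Among the 45 pairs of the 10 genes, Phlda3 and Eda2r had the highest correlation of any pair over the 16 libraries (r 0.93), and Eda2r and Trp53inp1 came next (0.83), followed by Cdkn1a and Zmat3 (0.82). Plk2 and Trp53inp1 were opposed (-0.77). These values include the differences between the groups. Within groups, Phlda3 and Eda2r were at 0.51 and Eda2r and Trp53inp1 at 0.43. Cdkn1a and Zmat3 were at -0.41 and Plk2 and Trp53inp1 at -0.14. Over the 16 libraries Trp53 was close to 0 with Cdkn1a (-0.07), Mdm2 (0.02) and Ccng1 (0.07). Within groups the highest values of Trp53 were with Phlda3 (0.77), Gdf15 (0.74) and Trp53inp1 (0.72), over points that include the library with 0 counts of Trp53. These correlations describe 16 libraries and carry no test.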

How the data were processed

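RNA of sorted MuSCs was depleted of ribosomal RNA and sequenced with the CORALL total RNA-Seq kit, whose use of strand and molecular identifiers in counting was not given in the sources used here. The submitters' processing notes name Trim Galore 0.6.7, STAR 2.6.1d, Salmon 1.5.2 and GRCm38, whereas the study's methods name another STAR version. The authors deposited estimated counts (expected counts of Salmon, summed per gene, not normalized) and a second table of estimated counts rescaled by transcript length to each library's total, used here as an alternative and for levels per length. Of 24411 symbols, 95.76% matched GENCODE M21, which gave the gene positions (GRCm38), and promoter windows came from RefSeq (GRCm38.p6).

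Counts were rounded, filtered with filterByExpr, scaled by TMM and tested with edgeR's robust quasi-likelihood test (edgeR 4.0.16, R 4.3.3) with Benjamini-Hochberg adjustment over all genes tested, on the 8 libraries compared or on all 16 for the difference of effects. Calls needed an adjusted p under 0.02, the study's threshold, and a fold change over 1.5. SE is the log2 fold change divided by the square root of the test statistic. The procedure was run on counts simulated from the fits of the genotype comparisons alone, as a check of wrong signs and calls of unchanged genes. The simulation held no library that deviates from its group and set no minimum for the changed genes recovered. It therefore does not show whether a change at 3 DPI would have been called. Groups came from the sample titles. The study calls its libraries biological replicates, and p-values measure the spread between them. The lowest chi-square of a replicate pair was 2.97 per degree of freedom, so no library was counted as a repeat of another. Alternatives were robust limma (3.58.1), the study's own method, DESeq2 (1.42.0), other scalings, filters and thresholds, all 16 libraries in one fit, the replicate number as a block, the rescaled table, leaving out each library, and at 3 DPI only libraries that share a description code. The 10 genes, the wider lists and the markers were chosen with earlier results of these data known. Named from the wider list are the called genes, Mdm4, Bax, Bbc3, Trp63 and Trp73, and the 3 others of smallest p in each comparison, and the 3 genes most like Cdkn1a and Mdm2 are those of highest Pearson r of log2 CPM (prior count 2).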

Additional observations from a re-analysis of the deposited data

Results flagged for a closer look

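Of 44 groups of 4 libraries tested for a library far from the others (the 10 genes and Terf2 in each group), 2 held one, and chance alone gives about 1 in 20 groups. Phlda3 was at 60.3 CPM in control replicate 2 at 3 DPI, with the other 3 libraries at 33.4 to 37.0 CPM. Plk2 was at 313 CPM in control replicate 3 at 3 DPI, with the other 3 at 197 to 207 CPM. Leaving out the library changed no call of either gene.

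The genotype effect differed between 3 DPI and uninjured MuSCs by the test of the difference itself for Cdkn1a (-2.40 on the log2 scale, 3 DPI minus uninjured, edgeR's adjusted p = 9.44e-04) and Ccng1 (-2.40, adjusted p = 0.0181). Cdkn1a was called under all 25 alternatives, but Ccng1 under 10 of 25, with adjusted p up to 0.137, and in 3 of the 16 fits without 1 library. All 4 uninjured TRF2MuSC-cKO libraries were above all controls for both genes, and at 3 DPI all 4 labelled libraries were below all controls for Ccng1 but not for Cdkn1a.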

How the results depend on the processing

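Among the 10 genes, the number called was 7 in uninjured MuSCs (5 by robust limma, 6 with all 16 libraries in one fit, 8 with library size alone, 3 with the rescaled table, 6 to 7 with 1 library left out), 0 at 3 DPI (0 throughout), 4 between injured and uninjured controls (7 with library size alone, 7 at an adjusted p under 0.05 with no minimum fold, 6 with at least 10 counts in every library, 4 to 5 with 1 library left out), 4 between the injured and uninjured TRF2MuSC-cKO libraries (6 by DESeq2 and at an adjusted p under 0.05, 5 by robust limma, 4 to 5 with 1 library left out) and 2 for the difference of effects (5 by robust limma, 6 by DESeq2, 4 with at least 10 counts in every library, 1 with the rescaled table, 1 to 5 with 1 library left out, the 5 without replicate 3 of the libraries labelled TRF2MuSC-cKO at 3 DPI). Of the wider list, 8 were called in uninjured MuSCs (1 with all 16 libraries in one fit, 0 with the rescaled table, 3 to 7 with 1 library left out), 11 between injured and uninjured controls (8 with all 16 libraries in one fit or the rescaled table, 16 at an adjusted p under 0.05, 9 to 13 with 1 library left out) and 3 between the injured and uninjured TRF2MuSC-cKO libraries (8 by robust limma, 7 by DESeq2, 5 with at least 10 counts in every library, 8 with all 16 libraries in one fit, 1 with the rescaled table, 7 at an adjusted p under 0.05, 1 to 6 with 1 library left out). Over all genes tested, the number called was 452 in uninjured MuSCs (299 by robust limma, 623 by DESeq2, 82 with all 16 libraries in one fit, 17 with the rescaled table, 711 at an adjusted p under 0.05, 259 to 574 with 1 library left out), 0 at 3 DPI (28 by robust limma, 22 by DESeq2, 3 with all 16 libraries in one fit, 1 among libraries sharing a code, 0 to 16 with 1 left out), 3104 between injured and uninjured controls (1595 with all 16 libraries in one fit, 2618 to 3344 with 1 left out), 589 between the injured and uninjured TRF2MuSC-cKO libraries (1020 by robust limma, 993 by DESeq2, 1204 with all 16 libraries in one fit, 364 with the replicate block, 283 with the rescaled table, 358 to 1316 with 1 left out) and 3 for the difference of effects (123 by robust limma, 24 by DESeq2, 8 with at least 10 counts in every library, 1 with the replicate block or the rescaled table, 1 to 13 with 1 left out). The cause of these changes was not tested, and no called gene among the 10 reversed. Same-numbered replicates correlated between -0.12 and 0.11 and the numbers mark no shared animal, so the replicate block is no pairing: with it 7 of the 10 genes were called in uninjured MuSCs and 1 for the difference of effects. Library size as the scaling moved the median over all genes (log2 fold change) in uninjured MuSCs from 0.06 to 0.24 and between controls from 0.07 to 0.23, and 9 of the 10 genes stayed above that median in uninjured MuSCs. Depth, at most 1351130 counts per library, limits the low genes, and Gdf15 was not fitted with at least 10 counts in every uninjured library.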
